A study of Mus musculus with 6 samples.

Results

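The 8 cadherins described here are Cdh1, Cdh2, Cdh3, Cdh4, Cdh5, Cdh6, Cdh11 and Cdh16, measured in mouse kidneys with and without Wnt4. They were taken as every probe set (the group of short array probes that reads 1 transcript) whose annotation gives 1 of these symbols alone. That gave 11 probe sets for 8 genes, out of 8251 genes named on the array, and 9 of the 11, covering all 8 genes, passed a filter on dim signals. Whole kidneys (metanephros, the embryonic kidney) were taken at embryonic day E14.5, Theiler stage 22. The wild-type group had 4 arrays, each of 2 pooled kidneys, with the strain given as CD-1. The mutant group had 2 arrays, each of 8 to 10 pooled kidneys from 4 to 5 embryos carrying Wnt4tm1Amc, an altered allele of the secreted signal Wnt4, with the strain given as 129. For all 6 samples, however, the protocols name CD-1 mice. Genotype therefore cannot be told apart from strain label or from pool size. By the submitters' account the renal vesicle does not form without Wnt4, and the groups were compared to find genes of the vesicle and of the structures that come from it.

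Cadherins are membrane proteins that join a cell to its neighbours through calcium-dependent binding between their outer domains. The classical ones hold catenins at their inner end, which link them to actin. When kidney mesenchyme turns into nephron epithelium, it first gathers around the tip of the ureteric bud as nephron progenitors and then forms a vesicle, and cells change the cadherins they carry as they pass through these states. Cdh1 (E-cadherin) is known from the ureteric bud and the distal nephron, Cdh4 (R-cadherin) from the renal vesicle and Cdh6 (K-cadherin) from the vesicle and the precursors of the proximal tubule. Cdh16 (Ksp-cadherin) is found in tubule and collecting duct epithelium, Cdh11 (OB-cadherin) in mesenchyme and Cdh5 (VE-cadherin) in endothelium. Cdh2 (N-cadherin) is carried by proximal tubule cells and also by mesenchymal, nerve and muscle cells. Cdh3 (P-cadherin) was given no single compartment here. Cdh16 lacks the catenin-binding tail, so in the strict sense it is not a classical cadherin, and Cdh5 is an outlying member of the family.

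The targeted gene matched the labels. Wnt4 read 829, 739, 946 and 699 in the wild type and 74.2 and 34.5 in the mutant, a difference of -3.59 ± 0.24 (SE; limma, adjusted p = 6.11e-05). Differences are mutant minus wild type in log2(signal + 16), which understates the change of dim genes. Whether this probe set overlaps the changed stretch of the gene was not analysed here. Log2 signals of 2 wild-type arrays correlated at 0.949 to 0.969, those of the mutant pair at 0.967, and those of arrays from different groups at 0.944 to 0.955. BioB, a control transcript, differed: it read 1720 ± 121 (SD, n = 4) in the wild type and 940 ± 14.4 (SD, n = 2) in the mutant, and the part of this in the results was not tested. Nothing says whether the pools share litters, and the p-values measure only the spread between these pools.

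In the mutant, Cdh6 fell, Cdh2 and Cdh11 rose, and Cdh1, Cdh3, Cdh4, Cdh5 and Cdh16 did not pass the test. Of the 9 cadherin probe sets tested, 1 was lower, 2 were higher and 6 did not pass, at an adjusted p under 0.05. Of all 7981 probe sets tested, 6.11% were lower and 4.65% higher. The median over the 9 was 0.20, beside 0.02 over all probe sets. For 5 of the 9, both mutant values lay above or both below every wild-type value, against 37.4% of all probe sets. Without mutant replicate 2 the count of rises went from 2 to 0, while Cdh6 was called under all 17 alternatives run. In bulk tissue, fewer cells of a type and less RNA per cell cannot be told apart.

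**Figure D1:**
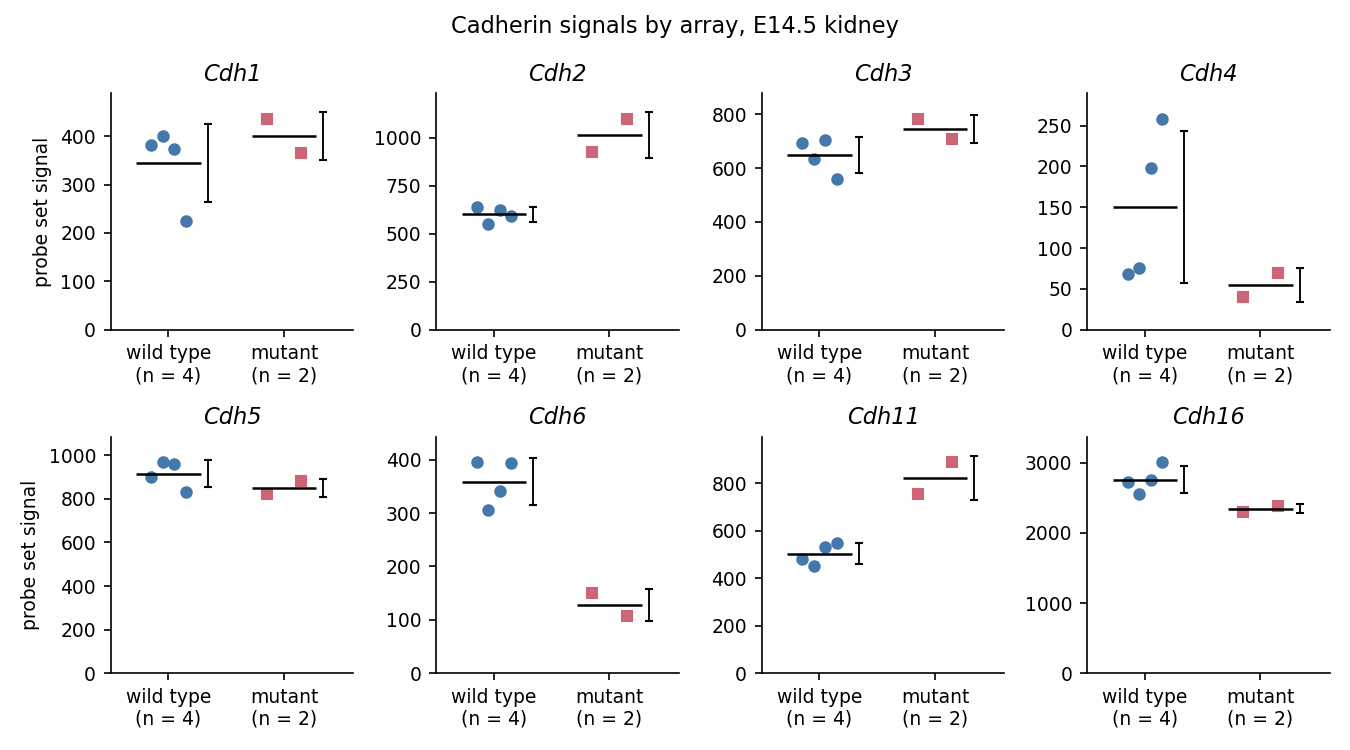
Signal of the brightest probe set of each cadherin (y axis, linear array units, from 0) on 4 wild-type arrays (circles) and 2 mutant arrays (squares), with the group mean as a line and the SD as a bar. Both Cdh6 mutant values (150 and 107) lie below all 4 wild-type values, and those of Cdh2 and Cdh11 lie above them.

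Cdh6, the cadherin of vesicles and proximal tubule precursors, gave the largest difference of the 3 that passed. Its signals were 395, 305, 342 and 394 in the wild type and 150 and 107 in the mutant. No mutant array reached the lowest wild-type array. The mean went from 359 ± 43.7 (SD, n = 4) to 128 ± 30.2 (SD, n = 2), and the log2 difference was -1.39 ± 0.20 (SE; 95% interval -1.83 to -0.94; limma, adjusted p = 0.00247), which is 2.61-fold lower. The remaining signal was still over the filter level, the 40th percentile of each array, on both mutant arrays. Leaving out each array in turn gave differences from -1.60 to -1.17, with adjusted p up to 0.0316.

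The promoter of Cdh6 is shown because it belongs to the only cadherin that fell, and it was the only one of the 8 cadherin promoters held in the RefSeq table used. The window covers the 250 bases before the start site that the table lists (GRCm38.p6, chr15:13173676-13173925, minus strand). It lies inside the annotated span of the gene, so further transcripts are annotated from a start upstream of it. Capitals mark the match to CANNTG, the E-box read by Twist, Zeb, Snail and Tcf12 type factors, searched on both strands.
Cdh6 promoter: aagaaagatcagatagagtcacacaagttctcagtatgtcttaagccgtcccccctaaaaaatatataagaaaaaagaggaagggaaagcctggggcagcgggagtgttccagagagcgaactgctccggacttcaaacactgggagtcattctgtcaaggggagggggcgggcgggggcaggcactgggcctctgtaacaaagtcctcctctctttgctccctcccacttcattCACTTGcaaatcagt
The window held 1 E-box, CACTTG, from 15 to 10 bases before the start, and 66.2% of 32851 windows of the same length held at least 1. It held no CACCTG, a narrower E-box that also counts as CANNTG (17.2% of windows held it). Nor did it hold CTTTGA, 1 form of the core read by Lef and Tcf factors (13.8%), or GTTAAT, the core of an Hnf1 site (6.43%). Other forms of the Lef and Tcf core, such as CTTTGT, were not searched. The letters acaaag in the window read CTTTGT on the other strand. These counts describe the letters of this window only.

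Cdh4, the vesicle cadherin, was dim and varied among wild-type arrays. Its brightest probe set (95898_at) read 68.7, 76.0, 198 and 258 in the wild type and 39.6 and 69.3 in the mutant. Mutant replicate 2 lay above wild-type replicate 1, so the groups overlapped. The log2 difference was -1.09 ± 0.54 (SE; 95% interval -2.31 to 0.13; adjusted p = 0.240). With the replicate number as a block it was -0.36 (adjusted p = 0.707). Wild-type replicates 3 and 4 have no mutant partner, so differences with this block compare replicates 1 and 2 of each group only. This probe set entered the test only through wild-type replicates 3 and 4, the arrays where it exceeded the filter level, and it was not tested with the filter when either was left out. The other Cdh4 probe sets did not exceed the filter level on 2 arrays and were not tested. One of them, 95371_g_at, read 40.1, 11.1, 40.4 and 111 in the wild type, over the level in replicate 4 alone, and 15.3 and 9.08 in the mutant. The other, 95370_at, lay between 2.73 and 8.44 in the wild type and at 11 and 16.9 in the mutant. Of the 3 probe sets, 95370_at was thus the one with higher mutant values, at signals far below the filter level.

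Cdh2, or N-cadherin, rose. It read 639, 549, 624 and 594 in the wild type and 929 and 1100 in the mutant. Both mutant arrays lay above all 4 wild-type arrays, whose spread was small. The means were 601 ± 39.7 (SD, n = 4) and 1014 ± 121 (SD, n = 2), a log2 difference of 0.74 ± 0.12 (SE; 95% interval 0.46 to 1.01; adjusted p = 0.00545), or 1.67-fold. Without mutant replicate 2, the higher of the mutant arrays, it was 0.62 (adjusted p = 0.0918).

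Cdh11, the mesenchymal cadherin, also rose. Its signals were 482, 452, 532 and 550 in the wild type and 757 and 889 in the mutant. The groups did not overlap. The means were 504 ± 45.3 (SD, n = 4) and 823 ± 93.1 (SD, n = 2), a log2 difference of 0.69 ± 0.13 (SE; 95% interval 0.39 to 0.99; adjusted p = 0.0116), or 1.61-fold. Without mutant replicate 2 it was 0.58 (adjusted p = 0.149).

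Cdh1, the cadherin of the ureteric bud, did not pass. It read 382, 401, 374 and 226 in the wild type and 436 and 365 in the mutant. Wild-type replicate 4 stood apart below the other 3, and mutant replicate 2 lay among the wild-type values. The log2 difference was 0.23 ± 0.23 (SE; 95% interval -0.29 to 0.76; adjusted p = 0.585). Without wild-type replicate 4 it was 0.05 (adjusted p = 0.862).

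Cdh16, the tubule and collecting duct cadherin, was bright on every array. It read 2719, 2552, 2761 and 3007 in the wild type and 2296 and 2387 in the mutant. Both mutant arrays lay below the wild-type range, as they did for 18.8% of all probe sets. The log2 difference of -0.23 ± 0.09 (SE; 95% interval -0.44 to -0.03) had an unadjusted p of 0.0314 in limma and an adjusted p of 0.143.

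Cdh3 and Cdh5 did not pass either. Cdh3 read 694, 632, 704 and 559 in the wild type and 783 and 709 in the mutant at its brighter probe set (100409_at). Both mutant values were above the wild-type range, as for 18.6% of all probe sets, but the upper wild-type value and the lower mutant value were 704 and 709. The log2 difference was 0.20 ± 0.13 (SE; 95% interval -0.09 to 0.50; adjusted p = 0.366). Its dimmer probe set (162097_r_at) lay between 88.9 and 158 in the wild type and at 133 and 219 in the mutant, with 0.37 ± 0.31 (SE; adjusted p = 0.507). That value was 0.70 without mutant replicate 1 and 0.05 without mutant replicate 2. Cdh5, which joins endothelial cells, read 900, 968, 961 and 832 in the wild type and 822 and 881 in the mutant. These groups overlapped, with a difference of -0.10 ± 0.11 (SE; 95% interval -0.34 to 0.14; adjusted p = 0.615).

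**Figure D2:**
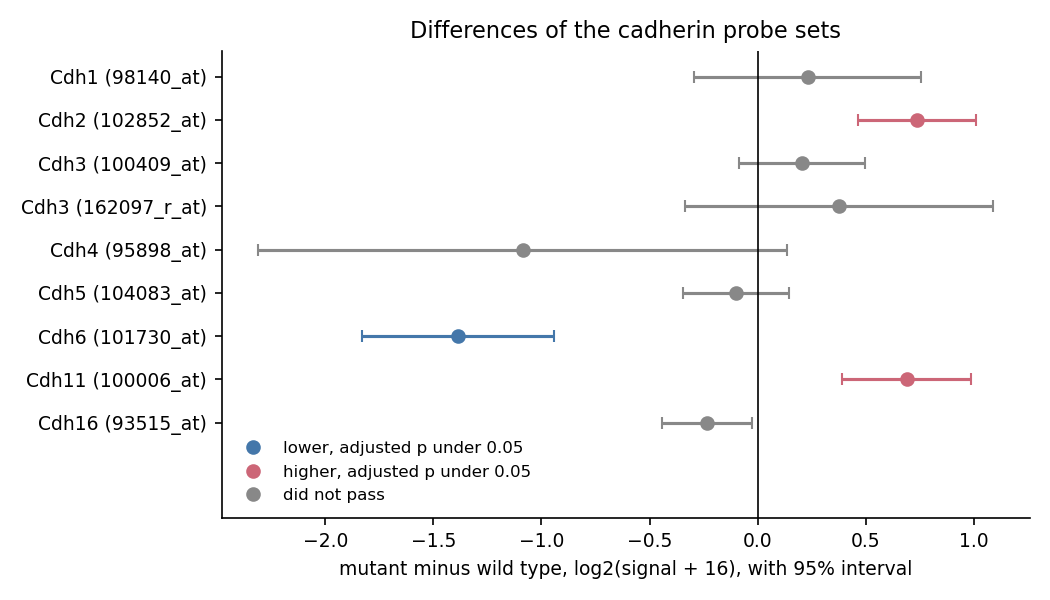
Difference of each tested cadherin probe set (x axis, mutant minus wild type in log2(signal + 16)) with its 95% interval from limma, 4 wild-type against 2 mutant arrays. Colours mark calls at an adjusted p under 0.05: Cdh6 at -1.39 lies to the left of 0, Cdh2 at 0.74 and Cdh11 at 0.69 to the right, and the interval of Cdh4 is the widest of the 9.

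Signals of different probe sets do not give relative transcript levels, but the ratio of a pair within an array shows whether the pair changed unequally. All 28 pairs of the 8 genes were compared by an exact two-sided permutation test over the 6 arrays. With 15 splits the smallest p it can give is 0.0667, so no pair could pass. That smallest p was reached by 13 pairs (0.144 after Benjamini-Hochberg adjustment). All of these but Cdh3 to Cdh5 and Cdh3 to Cdh16 hold Cdh2, Cdh6 or Cdh11. Pairs that share a gene are not independent, so the count largely repeats the calls of those genes. The log2 ratio of Cdh2 to Cdh6 ran from 0.57 to 0.84 in the wild type and from 2.51 to 3.18 in the mutant, a difference of 2.12 (exact permutation p = 0.0667). For Cdh2 against Cdh11 it ran from 0.11 to 0.39 and from 0.29 to 0.30, a difference of 0.05 (exact permutation p = 0.600).

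Of the 8 cadherins, some are neighbours in the genome. In the RefSeq table (assembly GRCm38.p6), no other protein-coding gene lies between Cdh11 and Cdh5, nor between Cdh3 and Cdh1. Cdh11 rose while its neighbour Cdh5 had -0.10, and the log2 ratio of Cdh5 to Cdh11 went from between 0.58 and 1.07 to between -0.01 and 0.12 (exact permutation p = 0.0667). The ratio of Cdh1 to Cdh3 differed by 0.03 between the groups (exact permutation p = 0.867), with its mutant values inside the wild-type range.

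The cadherins other than Cdh3 were then set beside marker genes of their compartments, lists that hold no cadherin. Over all 6082 genes tested, 6.35% were lower, 5.13% were higher and the median was 0.01. Genes bright in 1 group alone, wild type or mutant, enter the test only through that group, so these counts describe the lists and are not evidence about the cadherins. In the proximal tubule list 11 of 18 genes fell and 0 rose, with a median of -1.90, so Cdh6 at -1.39 lay on the same side and Cdh2 at 0.74 on the other, above the highest gene of the list (0.28). Pdzk1, a scaffold for brush-border transporters, fell by 4.70, Keg1 fell by 3.78 and the protease Napsa fell by 3.63. In the renal vesicle and early nephron list, which holds Wnt4 itself, 10 of 17 fell and 0 rose, with a median of -0.81. Beside it, Cdh4 had -1.09 (-0.36 with the replicate block) and Cdh6 had -1.39. Dll1, a Notch ligand, fell by 3.42 and Fgf8, a growth factor, fell by 2.39 (adjusted p = 0.0194). Fgf8 did not pass without mutant replicate 1 (adjusted p = 0.0686), mutant replicate 2 (0.102) or wild-type replicate 3 (0.0626), nor with the replicate block (0.101). With either mutant array left out, 6 vesicle genes fell. Of 6 genes of the distal tubule and loop of Henle, 3 fell and 0 rose, and the median was -0.54. Slc12a1, the sodium-potassium-chloride cotransporter, fell by 4.06 and the sodium pump subunit Fxyd2 fell by 2.50. Beside these, Cdh16 had -0.23 and Cdh1 had 0.23, and neither passed. In the nephron progenitor list 3 of 18 fell and 1 rose, with a median of 0.00.

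The ureteric bud and collecting duct list, the other compartment of Cdh16 and of Cdh1, held calls in both directions. Of 21 genes 2 fell and 5 rose, with a median of 0.36, beside 0.23 for Cdh1 and -0.23 for Cdh16. Gata2, a transcription factor, rose by 0.94, the keratin Krt7 rose by 0.69 and the calcium-binding protein Calb1, which is also in the distal tubule list, fell by 0.61. Tfcp2l1, a collecting duct transcription factor, had -0.12 at its brightest probe set (adjusted p = 0.426) and 0.10 at its other, and the claudin Cldn7 had -0.26 (adjusted p = 0.194). Krt7 did not pass without mutant replicate 1 (adjusted p = 0.128) or 2 (0.138), nor without the variance trend (0.0503), and Calb1 did not pass without mutant replicate 2 (0.0904). Leaving out wild-type replicate 1, 2 or 3 or either mutant array brought the rises to between 1 and 3. Without mutant replicate 2, 0 fell.

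In the renal stroma list 10 of 21 genes rose and 1 fell, with a median of 0.71. Beside it, Cdh11 had 0.69 and Cdh2, which mesenchymal cells also carry, had 0.74. Nephron progenitors are mesenchyme too, and the median of their list was 0.00. Foxd1, which marks cortical stroma, rose by 1.75, the guidance factor Ntn1 by 1.75 and the matrix protein Smoc2 by 1.43. The gene that fell was Tagln, at -1.32, the lowest of the stroma list. Cdkn1c and the collagen gene Col1a1 had 0.35 and 0.34 (adjusted p = 0.0890 and 0.320); Cdkn1c passed without wild-type replicate 4 (0.0475), with array weights (0.0351) and with quantile normalization (0.0238). The summed signal of 22 stroma genes was 47929 to 58666 in the wild type and 76019 to 78674 in the mutant, with Vim below the filter level on every array. Bright genes weigh most in such a sum of linear signals. Cdkn1c alone read 12257 to 15635 in the wild type and 17777 to 17906 in the mutant.

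Markers of other cells that can carry Cdh2 or Cdh11 were counted beside them. In the skeletal muscle list 7 of 15 genes rose and 0 fell, with a median of 1.28, and with either mutant array left out 3 rose. Tnnc1, a troponin, rose by 2.76 and entered the test only through the mutant arrays. The actin Actc1 rose by 2.05. The myosin light chain Myl1 rose by 2.17, but did not pass without mutant replicate 1 (adjusted p = 0.143), mutant replicate 2 (0.201) or wild-type replicate 1 (0.0543), nor without the variance trend (0.0691). The summed signal of 22 muscle genes was 2493 to 3175 in the wild type and 7219 to 7881 in the mutant, with Myf5, Myh8, Ryr1, Tnni2 and Tnnt3 below the filter level on every array. In the neural, glial and chromaffin list 1 of 7 genes rose, Dcx by 1.67, and 6 did not pass, with Th at -0.35. The sum over 15 genes was 3464 to 3946 in the wild type and 4669 to 5156 in the mutant. Elavl3, Elavl4, Fabp7, Nefl, Nefm and Snap25 stayed below the filter level there. No marker was listed at 0 on any array. The part of these cells in the rises of Cdh2 and Cdh11 was not tested.

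In the endothelium list 5 of 17 genes fell and 0 rose, with a median of -0.29, beside -0.10 for Cdh5. Nos3, the endothelial nitric oxide synthase, fell by 1.76 and entered the test only through the wild-type arrays. The claudin Cldn5 fell by 0.93 and the surface sialomucin Emcn by 0.63 at its brightest probe set. The other Emcn probe sets had -0.10 and -0.38 and did not pass, nor did the brightest without mutant replicate 1 (-0.52, adjusted p = 0.107). Ramp2 and Sox18 had -0.29 and -0.12 (adjusted p = 0.0769 and 0.602), with 0.08 at the other Sox18 probe set, and Ramp2 passed with array weights (0.0432). Without mutant replicate 1, 2 endothelial genes fell. The summed signal of 20 genes was 12108 to 12815 in the wild type and 9660 to 9895 in the mutant.

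**Figure D3:**
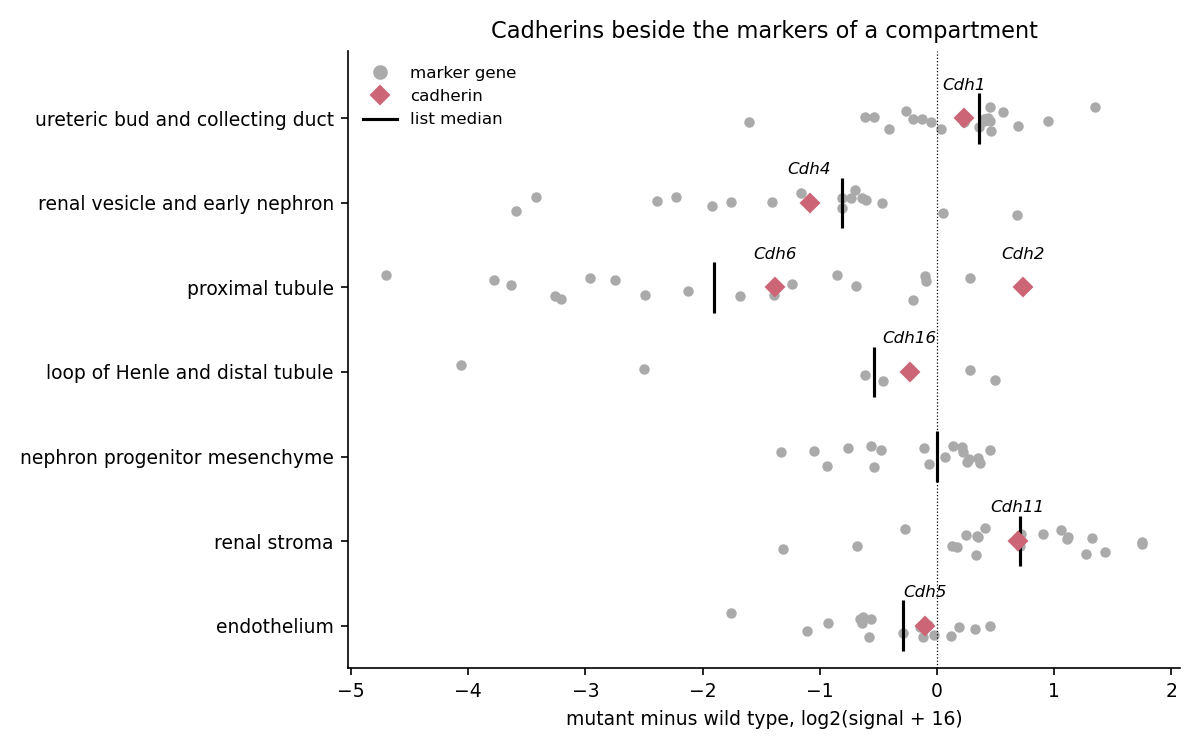
Differences (x axis, mutant minus wild type in log2(signal + 16)) of marker genes (grey circles) by compartment, with the list median as a line and cadherins as diamonds in a list they were compared with. Cdh6 lies among the proximal tubule genes and Cdh11 at the stroma median of 0.71. Cdh2 lies to the right of all proximal tubule genes, and its 0.74 is also close to the stroma median. The median of the nephron progenitor list, also mesenchyme, is 0.00.

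Genes that work with cadherins at the junction were counted next. Of 25 genes of the cadherin-catenin adhesion complex list, 0 fell and 3 rose, with a median of 0.20. Src, a kinase that acts on junctions, rose by 1.30 (97.8 ± 24.4 to 259 ± 5.24; adjusted p = 0.0239), the actin crosslinker Actn4 by 0.52 (adjusted p = 0.0407) and the small GTPase Cdc42 by 0.34 (adjusted p = 0.0398). With either mutant array left out, 0 of the 3 passed, and Src and Cdc42 did not pass with the replicate block (adjusted p = 0.101 and 0.107). Actn4 and Cdc42 each missed the threshold under 8 of the 17 alternatives. Beta-catenin, Ctnnb1, which binds the tail of classical cadherins, had 0.20 (adjusted p = 0.149). The other catenins, named here after their values were seen, did not pass either. Alpha-catenin, Ctnna1, had 0.02 (95% interval -0.16 to 0.20; -0.02 with each array centred on its median). The p120 catenin, Ctnnd1, had 0.30 and -0.01 at its probe sets (adjusted p = 0.128 and 0.964). Jup, or plakoglobin, had -0.72 (adjusted p = 0.0771), and its call depended on the setting. It passed without wild-type replicate 4 (-0.82, adjusted p = 0.0447), without wild-type replicates 2 and 4 (0.0179), with median centring (-0.76, 0.0436), with array weights (-0.81, 0.0242) and with the replicate number as a block (-0.69, 0.0293).

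Few relatives of these cadherins could be read. Of the 46 desmosomal cadherins, protocadherins and other cadherins listed, 13 were on the array with a symbol of their own, and 4 passed the filter. By limma 0 of the 4 passed at an adjusted p under 0.05, and 1, Celsr1, had an unadjusted p under 0.05. Celsr1, a seven-pass cadherin of planar polarity, had -0.73 (adjusted p = 0.0844), passing without wild-type replicate 4 (-0.84, adjusted p = 0.0490) and with array weights (-0.79, 0.0317). Its relative Celsr2 had -0.51 (adjusted p = 0.534) at its brighter probe set, with mutant values of 392 and 90.2 on either side of the wild-type range. That probe set had -1.48 without mutant replicate 1 and 0.46 without mutant replicate 2. The other Celsr2 probe set had 0.15 (adjusted p = 0.744), and its groups overlapped. The muscle cadherin Cdh15, named after its values were seen, had 0.98 (95% interval -0.01 to 1.97; adjusted p = 0.193) and entered the test only through the mutant arrays.

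Of 16 regulators of cadherin transcription tested, 6 rose and 1 fell, and the median was 0.42. Those that rose include repressors and activators of Cdh1, as known from other tissues. Zeb1, a repressor of Cdh1, rose by 0.75 (712 ± 48.5 to 1209 ± 39.5; adjusted p = 0.00258), Twist2 by 1.02 (adjusted p = 0.00366) and Twist1, a factor of mesenchyme, by 0.75 (adjusted p = 0.0263). Tcf12, an E-box factor, rose by 0.77 (adjusted p = 0.0142). Klf4 and Foxa1, known as activators of Cdh1 in epithelia, rose by 1.71 (adjusted p = 0.00127) and 1.13 (adjusted p = 0.0110). Tgfb1, a secreted inducer of mesenchymal state, fell by 2.32 (308 ± 94.0 to 47.2 ± 12.2; adjusted p = 0.00185). It entered the test only through the wild-type arrays. Snai2 had 0.02 (adjusted p = 0.935; -0.02 with each array centred on its median) and Tcf7l1 had 0.55 at its brightest probe set (adjusted p = 0.0785) and 0.01 at its other. The brighter Tcf7l1 probe set passed with the replicate block (0.79, adjusted p = 0.00862), array weights (0.57, 0.0222), without wild-type replicate 4 (0.66, 0.0203) and without wild-type replicates 2 and 4 (0.55, 0.0317). Snai1, named after its values were seen, had 0.20 (adjusted p = 0.487). With either mutant array left out 3 regulators rose, with Foxa1, Tcf12 and Twist1 not passing. Twist1 also missed the threshold without wild-type replicate 1 (adjusted p = 0.0630) and with the replicate block (0.0723), and Tcf12 without the variance trend (0.0585).

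For the 3 cadherins that passed, the genes with the most similar pattern were taken by the root-mean-square difference of centred log2 values over the 6 arrays, among 6074 other genes. For Cdh2 these were Dnajb3 at 0.055 (difference 0.74, adjusted p = 0.0689) and the E-cadherin repressor Zeb1 at 0.062. For Cdh6 they were D030056L22Rik at 0.092 (difference -1.41) and Gimap4 at 0.097 (difference -1.22). For Cdh11 they were Cnih2 at 0.066 (difference 0.72) and the dynein subunit Dync1i1 at 0.075 (difference 0.65). With either mutant array left out, neither Cnih2 nor Dync1i1 passed. With 6 arrays and 2 groups, such likeness is mostly a like difference between the groups, and it is a description only.

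**Figure D4:**
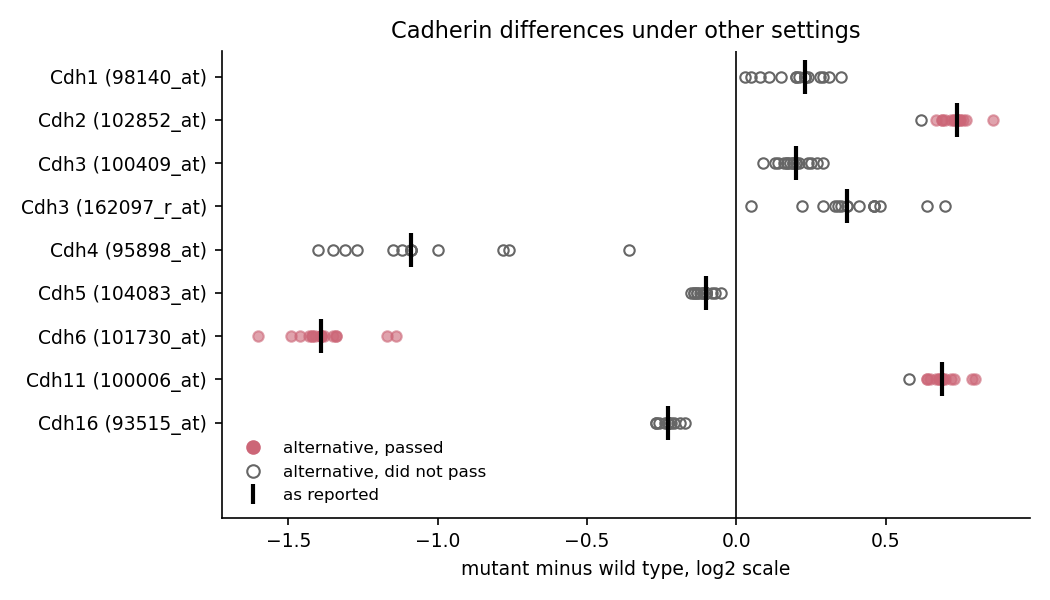
Difference of each cadherin probe set (x axis, mutant minus wild type, log2 scale) as reported (bar) and under up to 17 other settings (filled circles passed at an adjusted p under 0.05, open circles did not). Cdh6 stays between -1.60 and -1.14 and passed in all of them, and Cdh2 and Cdh11 each have 1 open circle, at 0.62 and 0.58.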

How the data were processed

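The authors deposited linear probe set signals (intensity) from 6 one-colour Affymetrix arrays, made with GCOS per the submitters' processing notes. Each array was already scaled: the mean without the lowest and highest 2% of values was 500.27 to 500.29. Total RNA had 1 round of amplification, per the labels. Signals have no read depth; the number of arrays limits the precision. Names came from the platform annotation, updated to RefSeq by gene identifier for 10817 of 10833 single-symbol probe sets.

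Of 12422 probe sets, 7981 were kept, those over the 40th percentile of their array on at least 2 arrays. The values log2(signal + 16) were fitted with limma 3.58.1 (R 4.3.3; eBayes with a variance trend, no covariate) and adjusted by Benjamini-Hochberg over all kept probe sets; the code was tested on simulated data. A gene in a list was represented by its brightest probe set. The members, lists and alternatives were chosen with earlier results of these data known. Genes named were the members, Wnt4, at most 3 called genes per list by size and 2 uncalled by signal. Every called gene of the 3 cadherin-related lists was named, as were the 2 nearest patterns per called cadherin. Tagln was named as the stroma gene that fell. Uncalled genes tested in the vesicle, proximal tubule, distal tubule, muscle and neural lists were left out, except Th. Rac1 of the adhesion complex list, uncalled at -0.04, was also left out. From the progenitor, podocyte, macrophage and erythroid lists (3, 3, 0 and 0 lower, and 1, 1, 1 and 3 higher) none is named. Alternatives changed the offset, filter, scaling, variance prior, array weights, replicate block, probe set rule and arrays.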

Additional observations from a re-analysis of the deposited data

Results flagged for a closer look

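Among the 4 wild-type arrays, 1 value stood far from the others for 4 of 61 genes or probe sets checked, by Dixon's gap ratio at its 95% level, which chance passes in about 1 of 20 groups. Cdh1 read 225.64 in wild-type replicate 4, against 373.69 to 400.75 in the others. In the same array Tnnc1 read 92.70 against 33.26 to 40.41, and Tcf12 read 3214.2 against 2183.85 to 2285.61. Zeb1 read 639.63 in wild-type replicate 2, against 732.08 to 740.87.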

How the results depend on the processing

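Over the alternatives run, Cdh6 kept its direction and its call. Cdh2 and Cdh11 lost their calls only without mutant replicate 2, and the cause was not tested. Leaving out 1 array in turn gave 0.62 to 0.86 for Cdh2, 0.58 to 0.80 for Cdh11, 0 to 2 cadherin probe sets called higher, and 188 to 553 lower and 114 to 448 higher over all probe sets. Array weights raised the last 2 counts to 738 and 613. No alternative brought Cdh1, Cdh3, Cdh4, Cdh5 or Cdh16 past the threshold. Near 0, signs turned: the Cdh1 to Cdh3 log2 ratio ran from -0.09 to 0.12 with 1 array left out and was -0.01 without wild-type replicates 2 and 4, where the Cdh2 to Cdh11 ratio was also -0.01. Snai2 and Ctnna1 had -0.02 with median centring, and with 1 array left out they ran from -0.03 to 0.07 each. The brighter Celsr2 probe set ran from -1.48 to 0.46 with 1 array left out. Replicate numbers are shared between the groups but no label pairs them, and deviations of same-numbered arrays correlated at -0.02 to 0.00. Wild-type replicates 3 and 4 have no mutant partner, so differences with the block rest on replicates 1 and 2 of each group alone. With the replicate block 362 probe sets were lower and 341 higher, and Cdh2 had 0.76, Cdh6 -1.35 and Cdh11 0.79, all still called. Cdh4 was not tested without wild-type replicate 3 or 4, or at a filter on the 60th percentile, where too few arrays exceeded the level.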
